A study of Mus musculus with 12 samples.

Results

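The 10 genes described here encode 9 apolipoproteins (Apoa1, Apoa2, Apoa4, Apoa5, Apob, Apoc2, Apoc3, Apoe and Apoh) and Mttp, the microsomal triglyceride transfer protein. They were chosen by symbol as the apolipoproteins and the lipid transfer protein of very-low-density lipoprotein (VLDL) assembly in liver. They are 10 of the 36047 genes with a transcript in the tables, and all 10 were among the 14670 genes that passed the filter on low counts. Liver RNA was sequenced from 12 adult male C57Bl/6J mice, 3 in each of 4 groups, after 7 days on the diets. The groups were a regular-fat control diet (RF.Ctrl), a regular-fat diet restricted in sulfur amino acids (RF.SAAR), a high-fat control diet (HF.Ctrl) and a high-fat restricted diet (HF.SAAR). All 4 diets lacked cysteine, so the control mice carried that feature too. The SAAR diets held less methionine, replaced by glutamic acid. Every mouse was housed alone and had been without food for some hours at collection. According to the paper, the mice were also labeled with deuterium, by an injection of heavy water and in the drinking water. The regular-fat and high-fat diets came from different suppliers, so fat level and supplier cannot be told apart.

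VLDL particles are built in the endoplasmic reticulum of hepatocytes, where MTTP loads lipid onto apolipoprotein B as it is made. The secreted particles carry triglyceride to other tissues, where apolipoprotein C-II activates lipoprotein lipase, apolipoprotein C-III restrains it, and apolipoprotein A-V favors it. Apolipoprotein E directs remnants to hepatic receptors, apolipoproteins A-I and A-II form high-density lipoprotein (HDL), and apolipoprotein A-IV is made by both intestine and liver in mice and travels on triglyceride-rich particles and HDL.

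The libraries held 16203094 to 21230092 estimated counts. The 8 hepatocyte markers, albumin among them, summed to between 80540 and 106600 CPM (counts scaled to library size alone). All 8 were above 1 CPM at the median, as the label of liver states. Every marker CPM is on this scale, whereas the CPM of the tested genes below are also normalized between mice. Genes of pancreatic acinar cells, which make digestive enzymes, ranged widely. Their 31 genes summed to 83.4 to 1752 CPM in the RF.Ctrl mice, 49.3 to 108 in RF.SAAR, 84.0 to 6657 in HF.Ctrl and 80.6 to 21900 in HF.SAAR mice. The 3 mice above 4000 CPM were replicate 2 of HF.Ctrl and replicates 2 and 3 of HF.SAAR. Values of Apoa4 and of the called genes of the pathway lists are also given without them, which leaves 1 HF.SAAR mouse. The other marker lists spanned 311 to 540 CPM (10 Kupffer cell and macrophage genes), 243 to 327 (7 stellate cell genes), 209 to 284 (6 sinusoidal endothelial genes), 35.5 to 58.7 (6 cholangiocyte genes), 5.71 to 32.5 (5 adipocyte genes) and 206 to 834 (5 skeletal muscle genes). The endothelial range was 270 to 283 CPM in RF.SAAR against 223 to 260 in RF.Ctrl, and on high fat the hepatocyte range was 94520 to 97750 CPM in HF.SAAR against 80540 to 91220 in HF.Ctrl and the macrophage range 397 to 540 against 311 to 391. On this scale the median log2 fold change of all genes, SAAR over Ctrl, was 0.164 on regular fat and 0.166 on high fat. The part of these cell types in the results was not tested. In bulk liver, fewer cells of a type and less RNA per cell cannot be told apart.

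Levels were compared between genes only per length, in TPM (the share of transcripts in a library after division by length). Apoe had rank 5 among all genes by its median over the 12 mice, with 24754 TPM and a range of 21054 to 27669. Apoa2 followed with a median of 18811 TPM, Apoa1 with 8900, Apoc3 with 3421 and Apoh, a phospholipid-binding plasma protein, with 2359. These 5 genes were among the 52 with the highest medians. Apoa5 had a median of 965 TPM, Apob of 734 and Apoc2 of 261. Apoa4 at 84.8 TPM and Mttp at 77.5 TPM were the lowest, at ranks 1006 and 1086.

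The order held in every mouse for 7 of the 9 neighboring pairs. Apoa5 was above Apob in 10 of 12 mice, with a ratio of 0.919 to 1.86, and Apoa4 was above Mttp in 7 of 12, with a ratio of 0.702 to 5.32, so neither pair was separated beyond the spread between mice. Apoe and Apoa2 kept their order in all 12 mice although the ratio went down to 1.003. The spread within a gene differed. Over the 12 mice the highest TPM of Apoa4 was 8.02 times its lowest, against 2.62 times for Apoc2, 2.11 times for Apoa5 and 1.31 to 1.83 times for the other 7 genes.

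**Figure D1:**
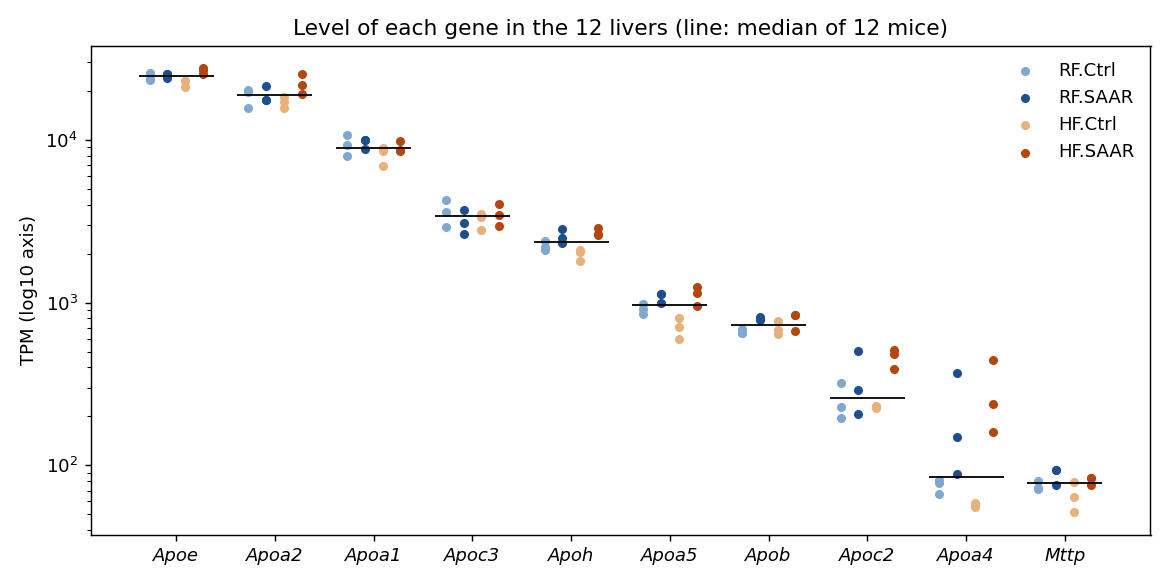
Deposited TPM of each gene, summed over its transcripts, on a log10 axis. Each point is a mouse, colored by group, and each line is the median of 12 mice. Apoe is highest at a median of 24754 TPM and Mttp lowest at 77.5, and Apoa4 spans 55.7 to 447 TPM.

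The 10 genes together held 5.71 to 6.37% of all TPM in RF.Ctrl, 5.78 to 6.62% in RF.SAAR, 5.27 to 5.73% in HF.Ctrl and 6.54 to 6.90% in HF.SAAR mice. The high-fat groups did not overlap, and the regular-fat groups did. TPM is a share of each library and is not scaled between mice. On that scale 9 of 10 genes had a higher mean in RF.SAAR than in RF.Ctrl and 10 of 10 in HF.SAAR than in HF.Ctrl, against 3 and 6 in CPM after scaling by TMM (trimmed mean of M-values). The TMM factors were 0.863 to 0.998 in the Ctrl and 0.98 to 1.11 in the SAAR mice. The genes that were higher on both scales at both fat levels were Apoa4, Apoa5 and Apoc2.

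Transcript make-up differed between the genes as well. Apoa4 has a single annotated transcript. The most abundant transcript held 97.8 to 98.8% of the TPM of Apoa1, 96.2 to 98.5% of Mttp, 88.6 to 91.0% of Apoc3 and 88.9 to 95.5% of Apoc2. It held 46.7 to 49.9% of Apoa2, 38.5 to 59.2% of Apoa5 and 53.0 to 77.1% of Apob. The most abundant transcript of Apoe, with 52.7 to 64.2% of its TPM, is annotated as a processed transcript rather than as coding. The division of reads among the transcripts of a gene is an estimate, so sums by gene were tested.

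The restriction comparisons asked whether less dietary methionine changed these genes at each fat level. A gene was called when its p from edgeR's quasi-likelihood F-test, adjusted by Benjamini-Hochberg over all 14670 genes, was under 0.05. On regular fat, 88 genes were called higher and 130 lower, which is 1.49% of all tested genes, and none of the 10 was called. Also 0 of the 10 had an unadjusted p under 0.05, beside 13.55% of all genes. DESeq2, started from all 36047 genes with its own filter, called 0 of the 10 and 591 genes in all. On high fat, 148 genes were called higher and 141 lower (1.97%), again with 0 of the 10. There, 2 of the 10 had an unadjusted p under 0.05, beside 12.44% of all genes, and DESeq2 called 1 of the 10, Apoa4, and 595 genes in all. In the mean of both restriction effects, which shares its mice with the comparisons above, 472 genes were called higher and 543 lower (6.92%), and 1 of the 10 was called, Apoa4. Scaling by library size alone, in place of TMM, turned the balance of calls over all genes to 359 higher and 66 lower on regular fat, 639 and 80 on high fat and 2175 and 274 in the mean. The median log2 fold change of the 10 genes was -0.08 on regular fat, 0.04 on high fat and -0.04 in the mean, beside -0.0013, -0.0014 and -0.0039 over all genes.

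**Figure D2:**
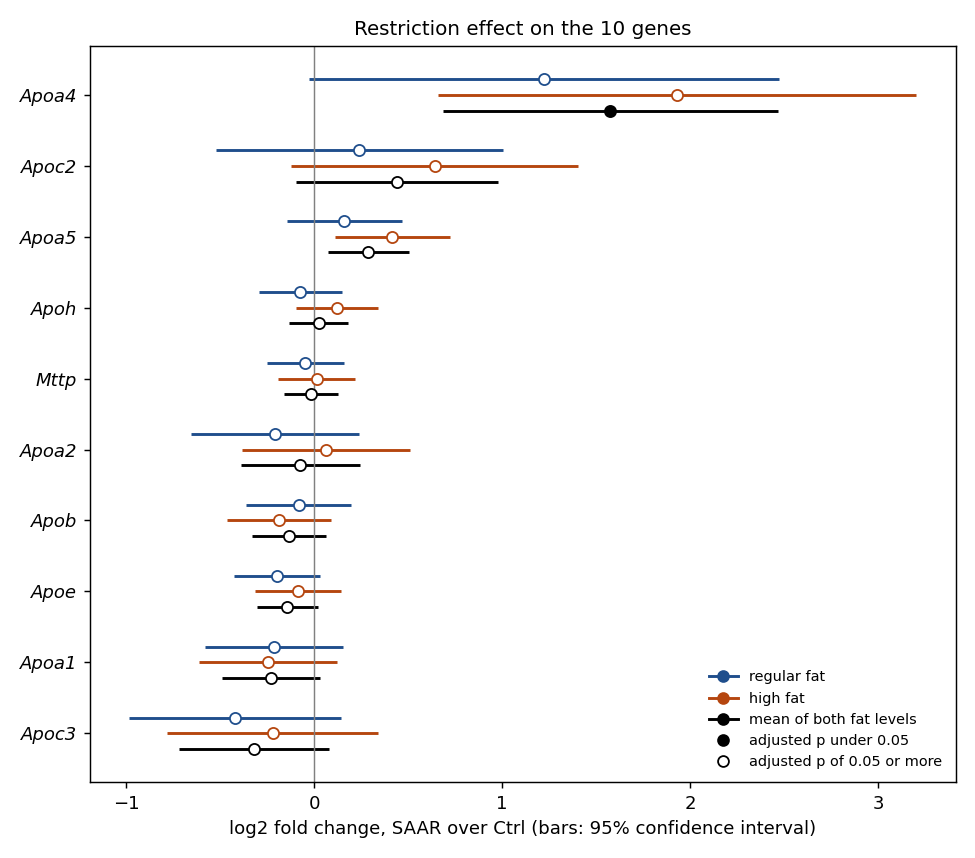
Log2 fold change of SAAR over Ctrl for the 10 genes on regular fat, on high fat and in the mean of both, with 95% confidence intervals and n = 3 mice a group. Only the mean for Apoa4, at 1.58, is filled as called, and the intervals of Apoa4 on high fat (0.66 to 3.20) and of Apoa5 on high fat (0.11 to 0.72) and in the mean (0.07 to 0.51) also lie above 0.

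Apoa4 was the gene that stood out. Its normalized CPM were 118, 123 and 133 in the RF.Ctrl mice and 113, 556 and 204 in the RF.SAAR mice. They were 106, 123 and 88.4 in the HF.Ctrl mice and 224, 390 and 598 in the HF.SAAR mice. All 3 HF.SAAR mice lay above every control mouse, whereas 1 RF.SAAR mouse, at 113 CPM, lay below all 3 RF.Ctrl mice. The groups thus overlapped on regular fat and not on high fat, as was the case for 17.86% of all tested genes on high fat. The coefficient of variation was 80.5% in RF.SAAR and 46.5% in HF.SAAR, against 6.28% and 16.5% in the corresponding controls.

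The log2 fold change of Apoa4 was 1.22 (SE 0.55, edgeR adjusted p = 0.382) on regular fat and 1.93 (SE 0.56, adjusted p = 0.158) on high fat. Neither passed the test alone. In the mean of both it rose by 1.58 (SE 0.39, adjusted p = 0.0471), a fold of 2.98 with a 95% confidence interval of 1.61 to 5.53. The difference between the fat levels was 0.71 (SE 0.77, adjusted p = 0.999), with an interval of -1.03 to 2.45.

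The call on Apoa4 was close to the threshold. Leaving out 1 mouse at a time gave values from 1.14 to 1.77, and the call was lost in 9 of 12 cases, with adjusted p of 0.0639 to 0.111. These were the cases without each of the 6 control mice in turn, without HF.SAAR replicate 2 or 3, and without RF.SAAR replicate 3. Without RF.SAAR replicate 2, the mouse at 556 CPM, the value on regular fat was 0.34 (edgeR adjusted p = 0.763), and that on high fat was called (1.93, adjusted p = 0.0282). DESeq2 gave 1.93 with an adjusted p of 0.0156 on high fat and 1.58 with 0.00143 in the mean. Over all 21 alternatives the mean ran from 1.14 to 1.77 and its adjusted p from 0.00143 to 0.358.

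**Figure D3:**
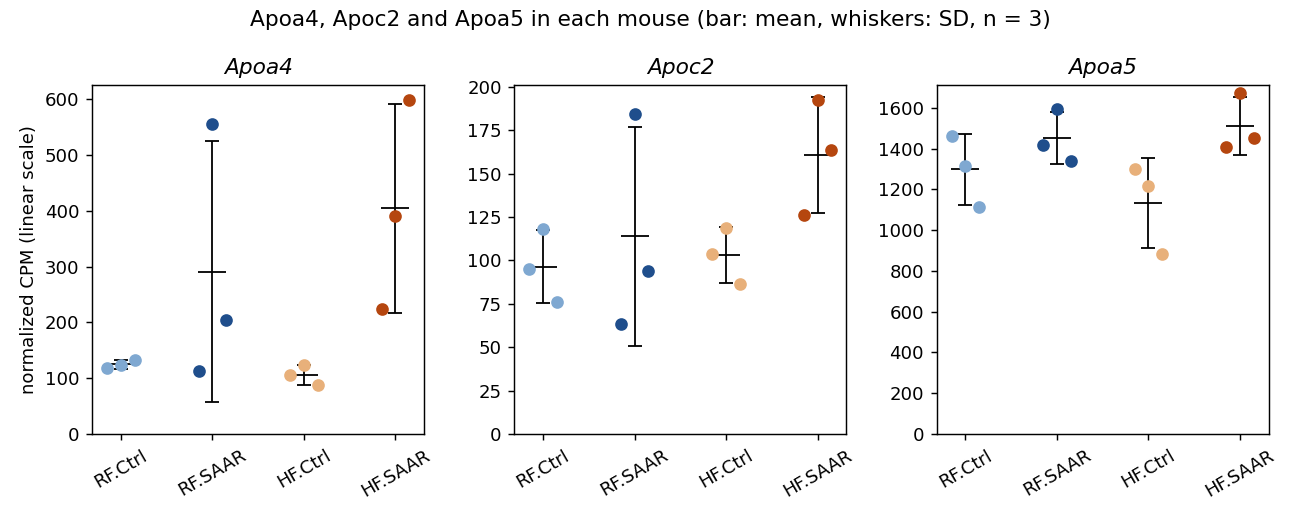
Normalized CPM of Apoa4, Apoc2 and Apoa5 on linear axes from 0, with a point for each mouse, the group mean as a bar and the SD as whiskers (n = 3). Apoa4 reaches 556 CPM in an RF.SAAR mouse and 598 in an HF.SAAR mouse, while all 6 control mice lie between 88.4 and 133.

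The HF.SAAR mouse with the highest Apoa4 also had the highest pancreatic signal (21900 CPM), and the next HF.SAAR mouse, at 390 CPM of Apoa4, had 4430 CPM of it. The RF.SAAR mouse at 556 CPM of Apoa4 had 108 CPM of pancreatic genes, and the HF.Ctrl mouse with 6657 CPM of them had 123 CPM of Apoa4. Without the 3 mice above 4000 CPM the mean for Apoa4 was 1.20 (edgeR adjusted p = 0.358), and the value on high fat was 1.18 (adjusted p = 0.847) with a single HF.SAAR mouse, assumed to vary like the other groups. Of 10 enterocyte genes, checked because intestine makes much Apoa4, the defining brush-border enzymes Alpi and Sis were at 0 in all 12 mice. The enterocyte sum was 78.5 to 105 CPM in the RF.Ctrl mice, 55.7 to 115 in RF.SAAR, 103 to 111 in HF.Ctrl and 84.6 to 122 in HF.SAAR mice. Of these genes, 2 had a median above 1 CPM, Fabp2 (84.1 CPM) and Lgals4 (16.3 CPM).

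**Figure D4:**
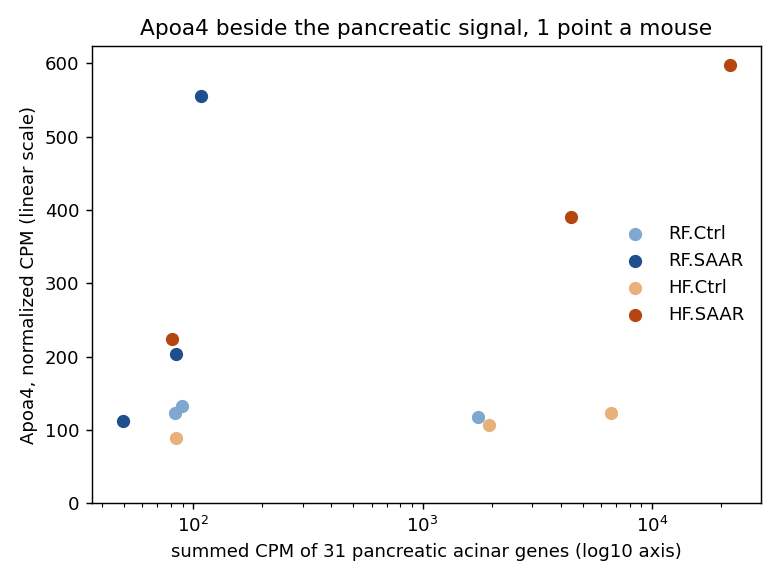
Normalized CPM of Apoa4 (linear axis) against the CPM of 31 pancreatic acinar genes, summed and scaled to library size alone (log10 axis). Each point is a mouse. Apoa4 is at 598 CPM in the mouse with 21900 CPM of pancreatic genes and at 556 CPM in a mouse with 108.

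Apoa4 lies on the plus strand of chromosome 9 (GRCm38, chr9:46240696-46243459) in a cluster with Apoa1 (chr9:46228580-46230466, plus strand), Apoc3 (chr9:46232933-46235636, minus strand) and Apoa5 (chr9:46268633-46271919, plus strand). It overlaps the annotated genes Gm47528 and Gm10680 on the other strand, which were not analysed here, and whether the libraries keep strand is not given in the sources used here. The stretches before the starts of 3 neighbors are shown because these genes gave different values from the same mice, 1.58 for Apoa4, -0.23 for Apoa1 and 0.29 for Apoa5 in the mean log2 fold change. They were read from the RefSeq promoter table of GRCm38.p6, which held 9 of the 10 genes, and end before the first start that RefSeq or GENCODE gives. Capitals mark matches on either strand to CAAAGTNCA, a form of the site of the hepatocyte factor HNF4A, or to TATAAA, the TATA box. The first form was chosen with the sequences in view.
Apoa4, chr9:46240594-46240695, plus strand: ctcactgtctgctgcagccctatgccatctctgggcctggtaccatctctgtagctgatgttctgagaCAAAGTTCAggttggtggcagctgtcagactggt
Apoa1, chr9:46228380-46228579, plus strand: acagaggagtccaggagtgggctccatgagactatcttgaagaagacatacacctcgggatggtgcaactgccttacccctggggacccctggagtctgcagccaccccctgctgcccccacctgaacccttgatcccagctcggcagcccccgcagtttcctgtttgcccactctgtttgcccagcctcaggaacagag
Apoa5, chr9:46268358-46268607, plus strand: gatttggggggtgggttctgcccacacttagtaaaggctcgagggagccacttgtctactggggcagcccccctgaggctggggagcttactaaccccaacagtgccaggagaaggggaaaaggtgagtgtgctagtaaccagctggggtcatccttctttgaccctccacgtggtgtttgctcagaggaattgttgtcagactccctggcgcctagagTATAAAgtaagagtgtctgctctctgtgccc

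The full windows searched held 250 bases before and 50 after the RefSeq starts. In them CAAAGTNCA was found for Apoa4 among the 9 genes and in 1.41% of all 32851 promoters. That form was chosen with the sequences in view, so its match for Apoa4 was known beforehand and nothing is concluded from this share. TATAAA was found for Apoa2, Apoe, Apoa5 and Apob and in 13.6% of all promoters. Its matches began at -212 bases from the RefSeq start for Apoa2, at -100 and -96 for Apoe and at -60 for Apob. For Apoa5 the position was -31 or -56, depending on the RefSeq start. GENCODE starts Apoe further upstream, at chr7:19699188 on the minus strand, so its matches (chr7:19698712-19698721) lie within that gene. GENCODE starts Apob at chr12:7977648, nearer to its match (chr12:7977617-7977622). The core of the amino acid response element bound by ATF4, TTGCATCA, and the cAMP response element TGACGTCA were found in none of the 9 genes, beside 0.895% and 1.79% of all promoters. These are matches of letters in these windows only.

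The 3 genes whose profile over the 12 mice was most like that of Apoa4, by the root mean square difference of centered log2 CPM, were Hhipl2 (0.38), Ung (0.49) and Cyp3a59 (0.51). Apoa4 itself varied by 0.92 around its own mean. Hhipl2 had 0.32 to 1.55 CPM only and was not called (mean 1.08, edgeR adjusted p = 0.111). Ung, the uracil-DNA glycosylase of base excision repair, ranged from 5.43 to 19.2 CPM and was called on regular fat (1.07, adjusted p = 0.0181), on high fat (1.33, adjusted p = 0.00403) and in the mean (1.20, adjusted p = 0.000278). Cyp3a59, a cytochrome P450 with near-identical relatives that may share its reads, was called on high fat (1.499, edgeR adjusted p = 0.00498) and in the mean (1.01, adjusted p = 0.00264).

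Among the regulators of lipoprotein lipase, Apoa5 and Apoc2 were at higher values under restriction on high fat without passing the test. Apoa5 CPM were 1463, 1316 and 1115 in RF.Ctrl, 1420, 1594 and 1341 in RF.SAAR, 1300, 1215 and 884 in HF.Ctrl and 1406, 1673 and 1454 in HF.SAAR. The high-fat groups did not overlap, like those of 17.86% of all tested genes, and the regular-fat groups did. Its log2 fold change was 0.42 (SE 0.14, edgeR adjusted p = 0.199) on high fat and 0.16 (SE 0.14, adjusted p = 0.714) on regular fat. In the mean it was 0.29 (SE 0.10, edgeR adjusted p = 0.114). When libraries were scaled by their size alone, which moved the median of all genes by 0.17 on high fat and 0.16 in the mean, Apoa5 was called on high fat (0.59, edgeR adjusted p = 0.0101) and in the mean (0.46, adjusted p = 0.00243). With offsets for effective length its value on regular fat was -0.02.

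Apoc2, the activator of lipoprotein lipase, had 94.8, 118 and 76.1 CPM in the RF.Ctrl mice, 63.4, 185 and 93.8 in RF.SAAR, 104, 119 and 86.7 in HF.Ctrl and 126, 192 and 164 in HF.SAAR mice. All 3 HF.SAAR mice were above the 3 HF.Ctrl mice, beside 17.86% of all tested genes without overlap on high fat. The RF.SAAR mice lay on both sides of the RF.Ctrl mice. The mouse with the highest Apoc2 in RF.SAAR was the one with the highest Apoa4. The log2 fold change of Apoc2 was 0.64 (SE 0.34, edgeR adjusted p = 0.503) on high fat, 0.24 (SE 0.34, adjusted p = 0.862) on regular fat and 0.44 (SE 0.24, adjusted p = 0.354) in the mean. Without RF.SAAR replicate 2 the value on regular fat was -0.29. Apoc2 overlaps the annotated gene Gm44805 on the same strand, which was given 286 to 511 estimated counts beside 1189 to 3721 for Apoc2, so the division of reads between them is uncertain.

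Apoc3, the inhibitor of lipoprotein lipase and neighbor of Apoa4, had 1256, 975.2 and 805 CPM in the RF.Ctrl mice and 688, 974 and 604 in RF.SAAR mice. On high fat it had 1117, 1226 and 744 CPM in HF.Ctrl and 817, 1134 and 700 in HF.SAAR mice. Both pairs of groups overlapped. The log2 fold changes of -0.42 (SE 0.26, edgeR adjusted p = 0.546), -0.22 (SE 0.25, adjusted p = 0.819) and, in the mean, -0.32 (SE 0.18, adjusted p = 0.362) did not pass the test. The interval of the mean, as a fold, was 0.608 to 1.05.

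Apob and Mttp, the core of VLDL assembly, were not called at the level of RNA. The paper names MTTP among proteins with raised synthesis rates in its restriction comparisons, a protein measure not examined here. Apob had 4180, 4377 and 4759 CPM in the RF.Ctrl mice, 4383, 3772 and 4421 in RF.SAAR, 4626, 3665 and 5592 in HF.Ctrl and 4380, 3861 and 3949 in HF.SAAR mice. All groups overlapped. Its mean log2 fold change was -0.14 (SE 0.09, edgeR adjusted p = 0.458), a fold of 0.911 with an interval of 0.794 to 1.04, and it was 0.03 with scaling by library size alone. Mttp had 296, 289 and 267 CPM in the RF.Ctrl mice, 276, 258 and 292 in RF.SAAR, 270, 245 and 289 in HF.Ctrl and 266, 285 and 260 in HF.SAAR mice. The highest of the 12 mice was 1.21 times the lowest. Its mean log2 fold change was -0.02 (SE 0.07, edgeR adjusted p = 0.938), a fold of 0.989 with an interval of 0.895 to 1.09, and it was 0.15 with scaling by library size alone, beside a shift of 0.16 in the median of all genes.

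Apoe, the receptor ligand, had 17412, 17131 and 15867 CPM in the RF.Ctrl mice and 14083, 16567 and 13305 in RF.SAAR mice. It had 17921, 19230 and 14879 CPM in HF.Ctrl and 16030, 17406 and 15592 in HF.SAAR mice. The groups overlapped at both fat levels, and the mean log2 fold change was -0.14 (SE 0.07, edgeR adjusted p = 0.319), or 0.03 with scaling by library size alone.

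Of the HDL proteins, Apoa1 had 7007, 7335 and 8843 CPM in the RF.Ctrl mice, 6406, 7601 and 5977 in RF.SAAR, 7987, 9601 and 5553 in HF.Ctrl and 5986, 7000 and 6550 in HF.SAAR mice. Its groups overlapped at both fat levels, and its fitted values were below 0 under every alternative, from -0.32 to -0.06 in the mean. The mean log2 fold change was -0.23 (SE 0.12, edgeR adjusted p = 0.315), although the mean TPM of Apoa1 was 9635 in RF.SAAR against 9346 in RF.Ctrl and 8992 in HF.SAAR against 8143 in HF.Ctrl mice. Apoa2 had 3557 to 6590 CPM over the 12 mice, with log2 fold changes of -0.21 (SE 0.20) on regular fat and 0.06 (SE 0.20) on high fat. Apoh had 1891 to 2632 CPM, with -0.07 (SE 0.10) and 0.12 (SE 0.10). The groups of both genes overlapped at both fat levels, and their edgeR adjusted p in the mean were 0.852 for Apoa2 and 0.910 for Apoh. Apoh was called higher in the mean with scaling by library size alone (0.19, edgeR adjusted p = 0.0400), close to the shift of all genes under that scaling.

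Dietary fat itself was compared within each diet. Between the control groups, HF.Ctrl vs. RF.Ctrl, edgeR called no gene of 14670 (0%), 527 had an unadjusted p under 0.05, and DESeq2 called 31. Between the restricted groups 3 genes were called higher and 4 lower on high fat (0.0477%), and in the mean of both fat effects 2 higher and 4 lower (0.0409%). A single gene was called for the interaction (1 gene, 0.00682%). None of the 10 genes was called in these 4 comparisons by edgeR or by DESeq2, and 0 of the 10 had an unadjusted p under 0.05 in any of them. Between HF.Ctrl and RF.Ctrl their log2 fold changes ran from -0.23 for Apoa4 (SE 0.54) to 0.10 for Apoc2 (SE 0.34). Between HF.SAAR and RF.SAAR they ran from -0.04 for Apob (SE 0.13) to 0.50 for Apoc2 (SE 0.34), and Apoa4 was at 0.47 (SE 0.54). The interaction was above 0 for 8 of the 10 genes, with a median of 0.20 beside 0.01 over all genes, and the smallest edgeR adjusted p was 0.999. Without sign, the median size was 0.20 for the 10 genes and 0.17 over all genes. The 10 genes come from the same mice, so their signs are not independent.

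A wider set of 82 genes around lipoprotein metabolism was read from the same fit, and all 82 were tested. On regular fat 0 were called higher and 3 lower (3.66%), on high fat 2 higher and 2 lower (4.88%), and in the mean 3 higher and 8 lower (13.4%). The shares over all genes were 1.49%, 1.97% and 6.92%. The lists were chosen with earlier results of these data known, so the higher shares among the 82 are not independent evidence of an excess. DESeq2, started from all 36047 genes with its own filter, called 10, 13 and 15 of the 82. Among all genes it called 591, 595 and 1363, which are not shares of the 14670. edgeR called 0 of the 82 in the 3 fat comparisons and the interaction, where 3 to 5 had an unadjusted p under 0.05, beside 3.149% to 5.842% of all genes, and DESeq2 called 1, Saa4, in the mean fat effect. In the mean, the 10 other apolipoproteins had 0 called higher and 4 lower, the 20 genes of VLDL assembly and export 1 higher and 1 lower, the 8 lipases and their modulators 0 higher and 1 lower, and the 27 transcription regulators 2 higher and 2 lower. No gene was called among the 3 of apoB mRNA editing, the 10 of lipoprotein receptors and clearance or the 4 of HDL assembly and remodelling.

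**Figure D5:**
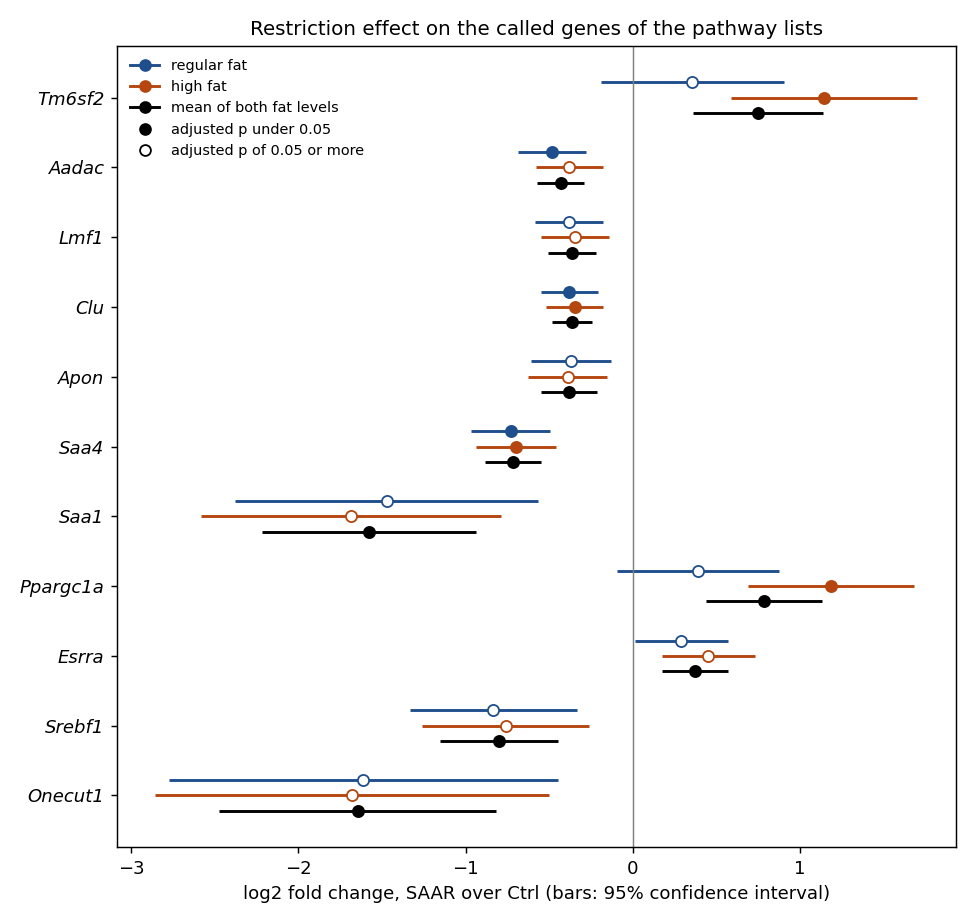
Log2 fold change of SAAR over Ctrl with 95% confidence intervals for the 11 genes of the pathway lists that were called in a comparison (n = 3 mice a group). Filled points passed the test. Clu and Saa4 are called lower in all 3 comparisons, and Tm6sf2 and Ppargc1a are called higher on high fat and in the mean.

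The other apolipoproteins that fell were Clu, Saa4, Saa1 and Apon. Saa4, the constitutive serum amyloid A of HDL, had 312, 228 and 274 CPM in the RF.Ctrl mice and 169, 165 and 157 in RF.SAAR mice. On high fat it had 338, 369 and 322 CPM in HF.Ctrl and 209, 213 and 212 in HF.SAAR mice. No restricted mouse reached a control mouse of either fat level, beside 4.301% of all tested genes without such overlap. The mean log2 fold change of Saa4 was -0.72 (SE 0.08, edgeR adjusted p = 0.000133), called under all 21 alternatives.

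Clu, the chaperone also named apolipoprotein J, had 1199 to 1255 CPM in the RF.Ctrl mice, 891 to 974 in RF.SAAR, 1233 to 1363 in HF.Ctrl and 985 to 1047 in HF.SAAR mice. The restricted and control mice did not overlap, like those of 4.301% of all tested genes. The mean log2 fold change of Clu was -0.36 (SE 0.06, edgeR adjusted p = 0.00169). It was called on regular fat (-0.38, adjusted p = 0.0290) and on high fat (-0.35, adjusted p = 0.0373). Saa1, an acute-phase apolipoprotein, was at 22.6 to 29.97 CPM in the RF.Ctrl mice, 6.93 to 11.5 in RF.SAAR, 20.2 to 64.5 in HF.Ctrl and 9.38 to 18.2 in HF.SAAR mice. Its mean log2 fold change was -1.58 (SE 0.29, edgeR adjusted p = 0.0103). Saa1 and Saa2 are close copies, so reads may be divided between them. Apon fell by 0.38 on the log2 scale (SE 0.08, edgeR adjusted p = 0.0102) with no overlap between restricted and control mice.

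In VLDL assembly and export, Tm6sf2, a membrane protein needed to load lipid onto VLDL, was called higher on high fat. It had 13.1, 11.01 and 9.69 CPM in HF.Ctrl and 24.8, 30.7 and 19.2 in HF.SAAR mice. These groups did not overlap, like those of 17.86% of all tested genes. Tm6sf2 differed by 1.14 on the log2 scale (SE 0.26, edgeR adjusted p = 0.0410). On regular fat it had 13.7, 20.3 and 11.5 CPM in the RF.Ctrl mice and 20.4, 24.3 and 13.6 in RF.SAAR mice, which overlapped (0.35, SE 0.25, edgeR adjusted p = 0.624). The difference between fat levels was not called (interaction 0.79, SE 0.36, edgeR adjusted p = 0.999). Its mean of 0.75 (SE 0.18, adjusted p = 0.0258) was no longer called in 8 of 12 cases with 1 mouse left out, in which the adjusted p was 0.0566 to 0.0717. Those mice were HF.SAAR replicates 1 and 2, RF.Ctrl replicates 1 and 3, RF.SAAR replicates 1 and 2 and HF.Ctrl replicates 2 and 3.

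Aadac, an esterase of the endoplasmic reticulum linked to the mobilization of triglyceride for VLDL, was called lower on regular fat. It had 565 to 630 CPM in the RF.Ctrl mice and 398 to 437 in RF.SAAR mice (log2 fold change -0.49, SE 0.09, edgeR adjusted p = 0.0208). On high fat it had 541 to 597 CPM in HF.Ctrl and 397 to 480 in HF.SAAR mice (-0.38, SE 0.09, edgeR adjusted p = 0.0595). The groups did not overlap at either fat level, beside 18.21% of all tested genes on regular fat and 17.86% on high fat. Lmf1, the factor that matures lipases, fell by 0.36 in the mean (SE 0.07, edgeR adjusted p = 0.00548), from 27.2 to 34.4 CPM in control mice to 23.1 to 26.2 in restricted mice.

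Among the transcription regulators, Ppargc1a, a coactivator of oxidative and gluconeogenic programs, was called higher on high fat, where it had 6.89, 9.01 and 7.07 CPM in HF.Ctrl and 22.9, 15.4 and 13.99 in HF.SAAR mice (1.18, SE 0.23, edgeR adjusted p = 0.0185). On regular fat its groups overlapped (0.39, SE 0.22, edgeR adjusted p = 0.515). Its partner Esrra rose by 0.37 in the mean (SE 0.09, edgeR adjusted p = 0.0267). Srebf1, the activator of fatty acid synthesis genes, fell by 0.80 in the mean (SE 0.16, edgeR adjusted p = 0.0121), from 70.9 to 135 CPM in control mice to 42.6 to 65.2 in restricted mice. Onecut1, a hepatocyte differentiation factor, fell by 1.65 (SE 0.36, edgeR adjusted p = 0.0298), from 27.6 to 102 CPM to 11.5 to 35.7. Creb3l3, an activator of Apoa4, Apoc2 and Apoa5, was at -0.07 in the mean (SE 0.08, edgeR adjusted p = 0.710), and Hnf4a at -0.09 (SE 0.11, adjusted p = 0.727). Both were named although not called, and their part in the values of Apoa4 was not tested.

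The calls on Esrra and Onecut1 were close to the threshold. With 1 mouse left out, Esrra ran from 0.30 to 0.41 and was not called in 6 of 12 cases, without RF.Ctrl replicate 1 or 3, HF.Ctrl replicate 2 or 3, HF.SAAR replicate 2 or RF.SAAR replicate 2 (edgeR adjusted p of 0.0505 to 0.0691). Onecut1 ran from -1.82 to -1.26 and was not called in 7 of 12 cases, without each of the RF.Ctrl mice in turn, HF.SAAR replicate 1 or 2, or RF.SAAR replicate 1 or 3 (edgeR adjusted p of 0.0534 to 0.0770). The other 8 called genes of the lists, apart from Tm6sf2, kept their call in the mean with any single mouse left out. Without the 3 mice above 4000 CPM of pancreatic genes, Aadac, Saa4 and Ppargc1a were still called in the mean, and the other 8 genes were not, with edgeR adjusted p from 0.0525 for Clu to 0.230 for Esrra.

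The calls at a single fat level were also refitted. Saa4 was called on regular fat and on high fat with any 1 mouse left out, from -0.84 to -0.62 and from -0.74 to -0.64. Clu ran from -0.40 to -0.34 on regular fat, where the call was lost in 8 of 12 cases (edgeR adjusted p of 0.0528 to 0.111), without each regular-fat mouse in turn, HF.Ctrl replicate 1 or HF.SAAR replicate 1. On high fat Clu ran from -0.38 to -0.30 and lost the call in 9 of 12 cases (edgeR adjusted p of 0.0556 to 0.159), without each high-fat or RF.Ctrl mouse in turn. Aadac ran from -0.52 to -0.44 on regular fat and was not called in 5 cases (edgeR adjusted p of 0.0589 to 0.0866), without each RF.Ctrl mouse in turn or RF.SAAR replicate 1 or 3.

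On high fat, Tm6sf2 ran from 0.95 to 1.30 and was not called in 7 of 12 cases (edgeR adjusted p of 0.0591 to 0.167), without each HF.Ctrl mouse in turn, HF.SAAR replicate 1 or 2, RF.Ctrl replicate 1 or RF.SAAR replicate 1. Ppargc1a ran from 0.94 to 1.32 and was not called in 3 cases (edgeR adjusted p of 0.0728 to 0.0961), without HF.Ctrl replicate 1 or 3 or HF.SAAR replicate 1. Without the 3 mice above 4000 CPM of pancreatic genes, and with a single HF.SAAR mouse, the values on high fat were 1.10 for Tm6sf2 (edgeR adjusted p = 0.457), 1.69 for Ppargc1a (adjusted p = 0.0536), -0.68 for Saa4 (adjusted p = 0.247) and -0.34 for Clu (adjusted p = 0.555), and none was called. On regular fat, Saa4 (-0.73, edgeR adjusted p = 0.0187) and Aadac (-0.48, adjusted p = 0.0416) were still called without them and Clu was not (-0.38, adjusted p = 0.1003).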

How the data were processed

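Libraries of polyadenylated RNA were made from frozen, crushed liver. The authors trimmed reads with cutadapt and ran kallisto on mouse transcripts of Ensembl. The estimated counts deposited are reads per transcript with shared reads divided by likelihood, the deposited TPM are those counts per effective length scaled to a fixed sum, and the deposited effective lengths are in bases. None is scaled between mice, replicates are not pooled, and sampling error is not given. In the labels the tags for diet and for fat content hold each other's values, and both were read together.

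Of 118489 transcripts, 116816 matched the GENCODE vM21 annotation of GRCm38 and were summed by gene. The others held 0.704 to 1.80% of the counts. Counts were rounded and fitted in R 4.3.3 with edgeR 4.0.16 (TMM, filterByExpr by group, robust quasi-likelihood fit, 1 coefficient a group, all 12 mice, SE as the log2 fold change over the square root of F). The median prior degrees of freedom were 5.51, and the common BCV (biological coefficient of variation) 0.215. CPM of the tested genes are per TMM-scaled library, and log2 CPM used a prior count of 2. CPM of the marker lists and their genes are scaled to library size alone. Precision comes from the spread between 3 mice a group, which the labels give as separate samples with no batch.

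All 10 genes were named in every comparison, with every gene of the lists called in any comparison and the 3 genes most like a called one. Outside this rule, the regulators Creb3l3 and Hnf4a were also named, although they were not called. The genes and lists were chosen with earlier results of these data known and come from general knowledge. Alternatives were RLE size factors, library size alone, no filter, at least 10 counts in every mouse, effective-length offsets, DESeq2 1.42.0, a fit of only the groups compared, no acinar genes, the most abundant transcript and leaving out each mouse. Leaving out the 3 mice over 4000 CPM of acinar genes and the refits of list genes called at a single fat level were added after seeing the data. Protein composition was not analysed here.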

Additional observations from a re-analysis of the deposited data

How the results depend on the processing

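The number of the 10 genes called stayed at 0 on regular fat, in the 3 comparisons of fat level and in the interaction under every alternative run. On high fat it was 1 with library size alone (Apoa5) and 1 with DESeq2 (Apoa4), and 0 to 1 with each mouse left out. In the mean restriction effect it was 3 with library size alone (Apoa4, Apoa5 and Apoh), 0 without the low-count filter, with effective-length offsets, with the most abundant transcript and without the 3 mice over 4000 CPM of acinar genes, and 0 to 1 with each mouse left out. Apoa4 kept the call in 8 of 21 alternatives and lost it in 13. Over all genes DESeq2 called 591, 595 and 1363 on regular fat, on high fat and in the mean, against 218, 289 and 1015 by edgeR. With the most abundant transcripts these were 16 higher and 24 lower, 47 and 49, and 167 and 224, and without the 3 mice 64 and 96, 16 and 14, and 158 and 222.

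Log2 fold changes near 0 changed sign under some settings. With library size alone, Apoa2 was at 0.090 in the mean, Apob at 0.085 on regular fat and 0.025 in the mean, Apoe at 0.087 on high fat and 0.025 in the mean, Apoh at 0.090 on regular fat, and Mttp at 0.12 on regular fat and 0.15 in the mean. That setting moved the median of all genes by 0.164 on regular fat, 0.166 on high fat and 0.163 in the mean. With effective-length offsets Apoa5 was at -0.016 on regular fat. Without the 3 mice, Mttp was at -0.088 on high fat and the interaction of Apoa4 at -0.043.

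With each mouse left out, the values ran from -0.17 to 0.20 for Apoa2 on high fat, -0.29 to 0.53 for Apoc2 on regular fat, -0.13 to 0.0047 for Apoh on regular fat, -0.018 to 0.063 for Apoh in the mean, -0.048 to 0.072 for Mttp on high fat and -0.048 to 0.013 for Mttp in the mean. The cause was not tested. With 3 mice a group, the 95% interval of Apoa4 in the mean spans folds of 1.61 to 5.53, that of Apoc2 0.935 to 1.97 and that of Apoc3 0.608 to 1.05.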
